A study of Mus musculus with 6 samples.

Results

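Of 69349 different 20-base signatures listed for mouse liver and for the BLK.CL4 cell line, 535 (0.771%) were well counted in every liver library and never counted in the cell line, and they are described here. A signature belonged to this set when its level was 10 CPM or more (CPM is a signature's share of all counts of its library in parts per 1000000) in each of 3 liver libraries and its count was 0 in each of 3 BLK.CL4 libraries. A signature missing from a library's list was taken as a count of 0. Another 1369 signatures reached 10 CPM in all liver libraries and were also listed in BLK.CL4, so the set made up 28.1% of the 1904 well-counted liver signatures. The members were thus chosen by their measured counts in both sources, and the contrast between liver and BLK.CL4 is given as a description, with no test. Members are called M1 to M535 in order of their mean liver level.

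The study measured total RNA of C57BL6 mice by massively parallel signature sequencing (MPSS), in 3 libraries from BLK.CL4 cells, a fibroblast line, and 3 from liver. The labels give the strain and the source of the RNA but no treatment, age, sex or number of animals. Nothing in them tells if a group's libraries are from different animals, cultures or RNA extractions, so every SD and p-value below covers the variation among these libraries alone, and that may be technical. Each library was sequenced in 4 runs, 2 of a type marked T and 2 of a type marked TH in the column headings, and the labels do not say how the types differ.

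In MPSS, cDNA is cut at the DpnII site GATC, the piece next to the site nearest the poly(A) end is cloned, and each clone is copied onto its own microbead. The bases that follow GATC are read by cycles of cutting and adaptor ligation, so that a count is a number of beads and the signature marks the transcript it came from. Hepatocytes make up most of the liver's mass and devote much of their mRNA to a few secreted proteins, while fibroblasts make mainly matrix and cytoskeletal proteins. In RNA of a whole tissue, fewer cells of a type and less RNA per cell cannot be told apart.

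The 10 most abundant members are printed first, since they lead the ranking described below. Each is written 5′ to 3′ with the DpnII site in capitals.
M1: GATCccacacataaatgact
M2: GATCaaccactgcaaattca
M3: GATCaccaagataattccat
M4: GATCagacacttcaaaatct
M5: GATCcctggtggaagggcgg
M6: GATCgttgctggaggcaggg
M7: GATCagccttgagaccatac
M8: GATCacctcggatgatggct
M9: GATCaatttggataggtgtg
M10: GATCaaccactgcaaattcg
M2 and M10 are the same sequence but for the last base.

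No mouse transcript sequences were used here, so most members have no gene name and the source labels were not checked against marker genes. A search of the RefSeq windows around annotated gene starts (GRCm38.p6, 250 bases before to 50 after each start, 32851 windows) matched 2 of the 535 members, and none matched a miRNA. For comparison, 16 of the 1369 other liver signatures matched, 10 of them in windows of more than 1 gene.
M179: GATCacaagaaagacgtggt
M179 matched in the sense direction, 14 to 20 bases after the annotated start, in Mup2, Mup15, Mup17, Mup18 and Mup19, which are 5 of the 14 Mup genes with a window. These genes lie on the minus strand of chromosome 4 and encode major urinary proteins, pheromone carriers that the liver secretes in quantity. In Mup2 the match lies at chr4:60139820-60139839 of that build. M179 stood at 285, 178 and 183 CPM in liver replicates 1, 2 and 3, a mean of 215 ± 60.7 CPM (SD, n = 3). TH runs gave 1276 of its counts and T runs 18. The match is to the letters only, near the start of the gene rather than its poly(A) end, and the signature cannot be assigned to 1 of the 5 genes. M520 matched 2410017I17Rik on chromosome 17, in the antisense direction, at 1 site.

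Depth was similar in all libraries. The liver libraries held 1724799, 2004290 and 2440849 counts and the BLK.CL4 libraries 1890287, 2051367 and 2187783, 6129437 in all for the cell line. A count of 0 allows a level of up to 1.37 to 1.59 CPM in a BLK.CL4 library (3 counts per library, mean 1.47 CPM). Against that mean, liver levels were at least 8.61-fold higher for the least abundant member, at least 73.4-fold higher for the median member and at least 6268-fold higher for M1. Such limits cover counting error only, because beads carry amplified molecules.

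The members held 18.4%, 17.5% and 20.1% of all counts in liver replicates 1, 2 and 3, a mean of 18.7 ± 1.31% (SD, n = 3). In TH runs alone the same rule gave a share of 28.9%. The reported share rested strongly on 1 library of the cell line. Without BLK.CL4 replicate 2 it rose to 30.3%, because 67 signatures counted in that library alone entered the set and brought 11.6 ± 0.609% of the liver counts with them. The largest of these is 1 of the most abundant signatures of liver, and it missed the set through 34 counts in BLK.CL4 replicate 2.
Kept out by 34 counts: GATCtgcattccatcctgtc
It stood at 46062, 46144 and 45288 CPM in the liver libraries, several times the level of M1. Of the 67 signatures, 23 had a single count in BLK.CL4 replicate 2, and the median was 4 counts. Leaving out BLK.CL4 replicate 1 or 3 added 27 or 29 signatures, with 1.07 ± 0.388% and 0.483 ± 0.0624% of the liver counts. BLK.CL4 replicate 2 also listed the most signatures, 31506 against 19686 and 23955. Whether this is connected with the 67 signatures was not tested. Liver replicate 1 set the size of the set in a similar way: it listed 8621 signatures against 17721 and 14332 in the other liver libraries, and without it the set grew to 836.

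The values next to the 2 limits of the rule are given as a description. Just inside on the liver level were M493 and M529, whose lowest liver value was 10.2 CPM. Just outside were 2 signatures with a lowest value of 9.98 CPM. At the other boundary, 31 signatures had 10 CPM or more in all liver libraries and a single BLK.CL4 count. The most abundant of them is printed because that 1 count separates it from the set.
Kept out by 1 count: GATCctctgatggagccaga
It stood at 3602, 3817 and 3148 CPM in liver, which would place it among the 10 most abundant members.

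The set's counts were unevenly divided among its members. M1 stood at 4865, 9127 and 13718 CPM in liver replicates 1, 2 and 3, a mean of 9237 ± 4427 CPM (SD, n = 3), and was the only member among the 10 most abundant liver signatures. M2 stood at 11376, 5024 and 8159 CPM, so the order of M1 and M2 differed between libraries and their means did not differ beyond the spread. M3 and M4 were steadier. M3 had 6645, 5847 and 6923 CPM, and M4 had 6178, 5586 and 6517 CPM. M3 was above M4 in all 3 libraries, by less than the spread of either over the libraries.

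Below them, M5 had 6915, 6847 and 2054 CPM and was low in liver replicate 3. M6 had 4705, 5163 and 4105 CPM. M7 had 3056, 3212 and 3265 CPM, with an SD of 109 CPM. M7 thus lay below M6 in every library. M8 had 3392, 2367 and 3737 CPM, M9 had 3347, 3392 and 2209 CPM, and M10 had 2126, 2906 and 3422 CPM, and these overlapped with each other and with M7.

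The 10 most abundant members of each library held 28.4 ± 0.631% of the set's counts, the 50 most abundant 59.6 ± 1.30%, and the 100 most abundant 74.2 ± 0.986% (SD, n = 3). Of the 535, 31, 31 and 34 members were enough for 50% of the set's counts in the 3 libraries. The Gini coefficient, which is 0 for equal levels and 1 when a single signature holds everything, was 0.719 ± 0.00674. Mean levels ran from 12.7 to 9237 CPM, with a median of 108 CPM and quartiles of 51.5 and 287 CPM. The 41 members at 1000 CPM or more held 53.9% of the set's counts, and the 239 members between 100 and 1000 CPM held 39.1%. The 255 members under 100 CPM shared the rest.

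The 1369 liver signatures that BLK.CL4 also had were more concentrated. There, 7, 7 and 17 signatures held 50% of the counts, and the top signature alone held 29.2%, 20.7% and 21.4%, against 6.18%, 5.22% and 6.83% for the top member. The groups of 3 values do not overlap, but the rule shaped both lists and no test was made. The converse set, 751 signatures at 10 CPM or more in all BLK.CL4 libraries and with no liver count, was larger and its members were less abundant, with a median level of 48.2 CPM. Its 10 most abundant signatures held 29.6%, 33.4% and 29.6% of its counts, slightly more than in the liver set. Further down it was less concentrated, with 52.2 ± 3.74% in its 50 most abundant, 44, 35 and 55 signatures for 50% of its counts, and a Gini coefficient of 0.674 ± 0.0282. Among the 50, 100, 500 and 1000 most abundant liver signatures, 12, 35, 179 and 297 were members of the liver set.

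**Figure D1:**
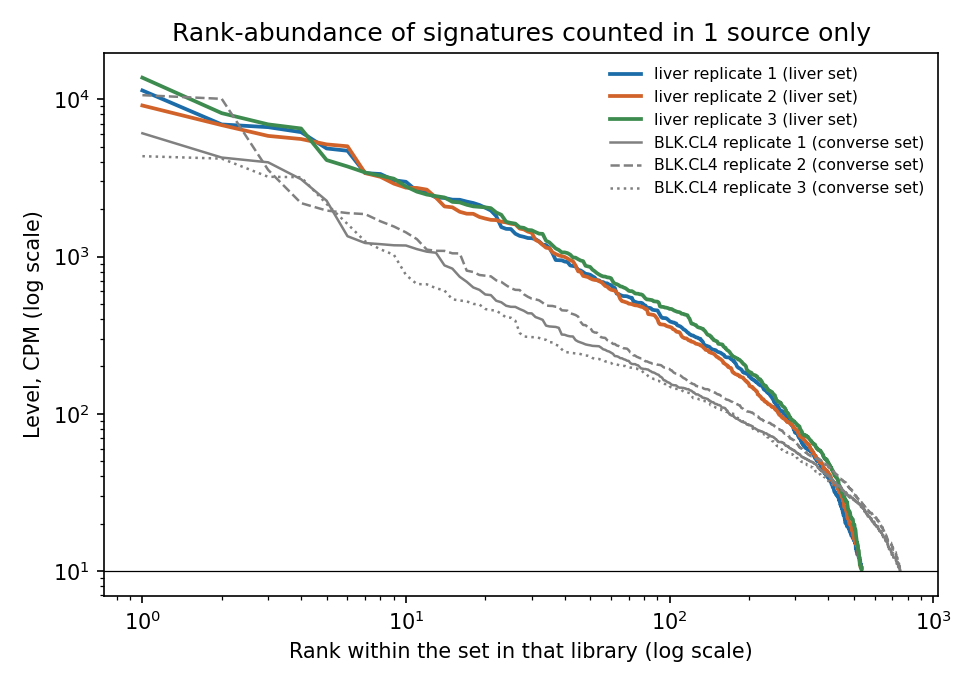
Level in CPM (log scale) of each signature against its rank in that library (log scale), for the 535 liver signatures in the 3 liver libraries and for the 751 signatures of the converse set in the 3 BLK.CL4 libraries (grey); the thin line marks 10 CPM, the minimum of both rules. The liver curves lie close together and above the grey ones over most ranks, and the grey ones run on to 751 signatures.

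Members varied between the liver libraries far more than counting alone gives. The coefficient of variation (CV, the SD over the mean of the 3 libraries) had a median of 47.2%, against a median of 6.70% from counting alone. The other 1369 liver signatures varied as much, with a median CV of 49.8%. Abundant members were the most even. The median CV was 23.2% for the 41 members at 1000 CPM or more, 44.4% for those between 100 and 1000 CPM and 52.9% under 100 CPM. In the other liver signatures the same classes had medians of 38.0%, 49.2% and 51.2%.

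The ratio of the highest to the lowest liver library had a median of 2.60 over the members and reached 17.2. It was under 2 for 179 members (33.5%), over 5 for 94 (17.6%) and over 10 for 14. Liver replicate 3 was highest for 215 members, replicate 1 for 167 and replicate 2 for 153. Over the 535 members, log2 CPM of liver replicates 1 and 2 correlated at 0.768, of 1 and 3 at 0.803 and of 2 and 3 at 0.827. These correlations are descriptions, the points share libraries, and the minimum of 10 CPM limits how far apart low values can lie.

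Among the members at 50 CPM or more on average, the most and the least even are shown because they span the range.
M53: GATCataccaaagtacacca
M119: GATCcagtgtgctggtcttt
M209: GATCttgggcaaaatggcaa
M146: GATCacagaaacaataaaaa
M39: GATCccacacataaatgacc
M307: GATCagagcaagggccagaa
M53 was the most even, at 749, 740 and 737 CPM, a CV of 0.836%. M119 had 314, 333 and 320 CPM. M209 had 167, 178 and 176 CPM. These 3 were level in all libraries. M146 was the least even, at 675 CPM in liver replicate 1 and 66.9 and 74.6 CPM in the others, a CV of 128%. M39 was also high in replicate 1, at 2611 CPM against 378 and 187 CPM. M307 was high in replicate 3, at 192 CPM against 31.3 and 22.0 CPM. Each of the 3 uneven members was set apart by 1 library, and each got most or all of its counts from TH runs.

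**Figure D2:**
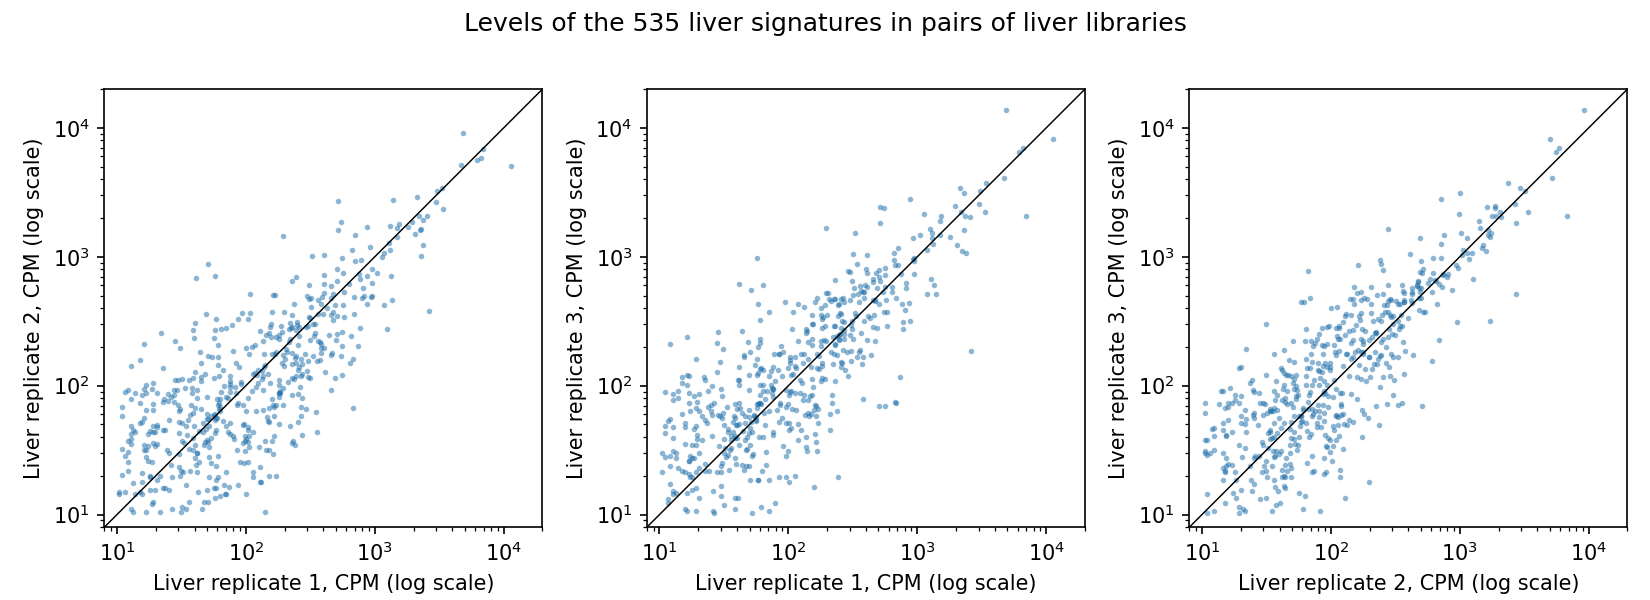
Level of each of the 535 liver signatures (points) in 1 liver library against another, in CPM on log scales, for the 3 pairs of libraries; the line marks equal levels. Points close in on the line as the level rises, and M39, at 2611 against 378 and 187 CPM, is one of the few points above 1000 CPM that lie far from it.

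The run types of the same libraries differed in which members they counted. Of the 535 members, 115 (21.5%) had no count in any T run and 81 (15.1%) none in any TH run, while 339 had counts in both. Members without T counts held 21.0 ± 2.40% of the set's counts and those without TH counts 7.84 ± 0.391% (SD, n = 3). Of the 1369 other liver signatures, 260 (19%) lacked T counts and 150 (11.0%) lacked TH counts. When a signature had to be counted in at least 2 runs of a library, the rule gave a set of 475. Of these 475, 9.47% lacked TH counts. Both types were present in every liver library for 188 of the 535 members, and 116 members were counted in all 12 liver runs. Of the 133 members counted in exactly 6 runs, 71 were in the 6 TH runs and no T run, and 40 in the 6 T runs and no TH run.

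The most abundant members of each kind were chosen for naming after their values were seen. Those without a T count were M1, M2, M10, M12 and M29.
M12: GATCccggccaagtgggaag
M29: GATCtgactctgtcttctgt
Those without a TH count were M25, M42, M43, M45 and M52.
M25: GATCcctggtgggaaggcgg
M42: GATCccactgcacatagaac
M43: GATCaccaagataattaaat
M45: GATCctgagacagggaaaag
M52: GATCatgcctgggggagccc
In the TH runs of the 3 liver libraries M2 was counted 19622, 10069 and 19916 times, and the T runs had none. For M12 the TH runs gave 4389, 4172 and 4954 counts. M45 was the opposite, with T run counts of 1602, 980 and 3401 and none in TH runs. M52 followed with T run counts of 966, 1948 and 2013. Over the 10 members named here, each zero stands against 563 (M43 in liver replicate 1) to 33483 (M1 in liver replicate 3) counts in the other type from the same library. Relative to the counts of that type alone, M1 averaged 16623 CPM and M2 14657 CPM in TH runs, so the first places of the ranking belong to signatures that were read by 1 run type.

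Self-complementary 4-base words occurred at particular places in the members that lacked a run type. Taking the G of the leading GATC as position 1, such a palindrome began at position 3, 7, 11 or 15 in 58 members, and 44 of these (75.9%) had no T count. A palindrome began at position 4, 8, 12 or 16 in 44 members, and 28 of these (63.6%) had no TH count. Among the 339 members counted in both types, 10 held a palindrome of the first kind and 13 of the second. A palindrome of the first kind was thus held by 10.8% of members and 9.49% of all 69349 signatures, and 1 of the second kind by 8.22% and 8.99%. These positions were taken from earlier results on these signatures and give no independent support. How many of the other liver signatures with such palindromes lacked a run type is not given. The shares of 75.9% and 63.6% thus describe the members only. Of the 5 named members without T counts, M2, M10 and M12 held a palindrome of the first kind, and M1 and M29 did not. Of the 5 without TH counts, M52 alone held 1 of the second kind, and M43, counted in T runs, held 1 of the first kind. Most members with a missing run type held neither kind at the places named.

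Even where both types counted a member, the levels could be far apart. Of the 339 members with both, 106 (31.3%) differed by over 5-fold between types in their mean level, 55 of them higher in TH runs and 51 in T runs. The same share of the other liver signatures is not given, so this describes the members only. M7 had 102, 0 and 56 counts in T runs against 5169, 6438 and 7913 in TH runs. M16, GATCtgcattccatcctgcc, ran the other way, with 3128, 3551 and 5520 counts in T runs against 254, 194 and 526 in TH runs. M6, M8 and M9 were of similar level in both types. For M6 the T runs gave 3653, 5252 and 4916 counts and the TH runs 4462, 5097 and 5104.

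Over all members, log2(CPM + 5) in T runs and in TH runs of the same library correlated at -0.0514, -0.101 and -0.0330, while the 2 runs of 1 type correlated at 0.734 to 0.825. The rule asks for a minimum of the sum of both types, so the 2 types are not independent of each other in this selection. For the 175 members with 10 counts or more in each type of each liver library, the log2 difference between a pair of libraries was alike in both types, with correlations of 0.528, 0.586 and 0.689 and the same sign in 72.6%, 75.4% and 83.4% of members. These are descriptions over members of shared libraries.

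**Figure D3:**
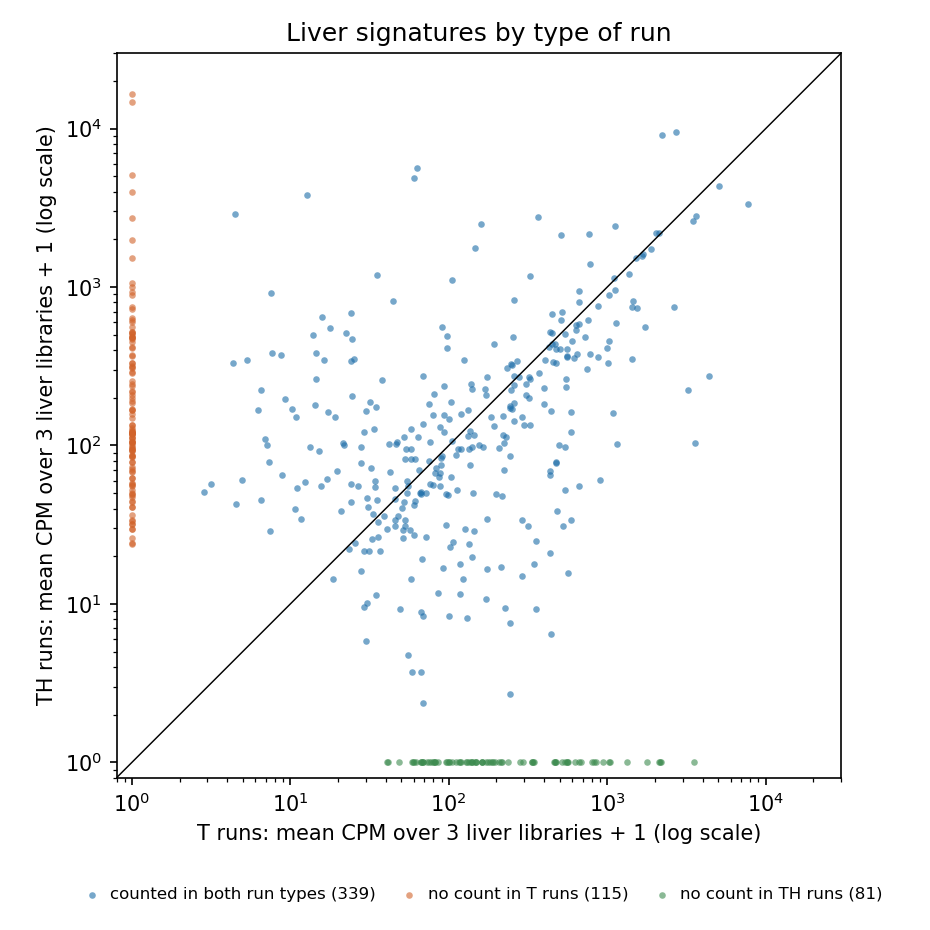
Mean level of each liver signature over 3 liver libraries in T runs (horizontal) and in TH runs (vertical), as CPM of the counts of that run type plus 1, on log scales; the line marks equal levels. The 115 signatures without T counts stand on the left edge and reach M1 at 16623 CPM, and the 81 without TH counts lie along the bottom edge.

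The difference between run types was tested with edgeR's quasi-likelihood test on counts summed by liver library and run type, with the library as a block, over 3731 signatures at 10 CPM or more in at least 2 liver libraries. No member passed a Benjamini-Hochberg adjusted threshold of 0.05 in either direction, and neither did any other signature (0.0% called). The smallest adjusted p was 0.195. At an unadjusted p under 0.05 stood 129 members with TH above T and 100 with T above TH, 24.1% and 18.7% of them, against 12.7% and 9.57% of all signatures tested. With the minimum raised to 25 CPM in all liver libraries the shares were 31.6% and 20.8% of 380 members against 28.7% and 18.1% of 1235 signatures. At that higher minimum the members' shares lay close to the shares of all signatures.

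The median log2 difference, TH minus T, was 0.24 over the members and 0.45 over all signatures tested with TMM factors, and -0.07 and 0.16 with library totals, so the direction of the typical member depended on the scaling.

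The number of calls depended on the test. DESeq2 with the same block called 175 members with TH above T (32.7%, against 22.9% of all tested) and 115 with T above TH (21.5%, against 12.8%). edgeR without the library block called 128 and 93 members (23.9% and 17.4%), against 15.3% and 8.76% of all. TH runs lay above T runs in every pairing of the 3 liver libraries for 173 members (32.3%, against 22.7% of all tested), and T runs above TH runs for 162 (30.3%, against 17.3%). Members had to reach 10 CPM in all 3 liver libraries, while the signatures tested needed it in at least 2. The shares in this paragraph thus compare sets with unlike minimums and do not set the members apart. M3 was one of the members with a moderate difference, with T run counts of 2153, 1951 and 3402 and TH run counts of 9309, 9768 and 13496. Its log2 difference was 2.11 in edgeR, with an adjusted p of 0.195, and 2.21 in DESeq2, with an adjusted p of 0.0417. M5 passed neither test, with an adjusted p of 0.308 in edgeR and 0.245 in DESeq2, and its libraries differed. In liver replicate 1 its T runs had 12619 and 13297 CPM and its TH runs 1158 and 3399 CPM. In replicate 3 the T runs had 3331 and 5138 CPM and the TH runs 623 and 0 CPM. Replicate 2 did not share this order, with 6593 and 5312 CPM in T runs and 10010 and 5162 CPM in TH runs.

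Some members were present in 1 run and absent from its sister run of the same type and library. In 1604 pairs of sister runs a member had 50 counts or more in 1 run, and in 245 of these (15.3%) the other run had 0. Such a pair occurred in 150 members (28.0%). In the other liver signatures it was 248 of 3500 pairs (7.09%) and 196 signatures (14.3%). The comparison and its minimum of 50 counts were chosen after the data were seen. The rule kept only members without BLK.CL4 counts, so it bears on this contrast, which was not tested. M5, for example, had 372 counts in 1 TH run of liver replicate 3 and 0 in the other.

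M1 and M39 form the clearest case and differ in the last base only.
M1: GATCccacacataaatgact
M39: GATCccacacataaatgacc
In liver replicate 1, the first TH run counted 0 of M1 and 4504 of M39, and the second counted 8391 of M1 and 0 of M39. In the TH runs of the other libraries M39 made up between 0% and 4.10% of the pair. Outside the TH runs, the second T run of liver replicate 2 counted 392 of M39 and 0 of M1. The summed level of the pair in the 6 TH runs was 8949, 17880, 16278, 17419, 25569 and 24648 CPM. The place of M39 among the least even members thus came from 1 run of liver replicate 1. M2 and M10 also differ in their last base alone, and there both were counted in all 6 TH runs. M10 made up 15.7%, 36.6% and 29.5% of that pair in liver replicates 1, 2 and 3. In all, 45 pairs of members, with 76 members in them, differed only at position 20. No share of the other liver signatures is given beside these numbers, so they do not set the members apart.

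Many members stood 1 base away from a far more abundant signature. Of the 535, 89 (16.6%) had a 1-base neighbour at least 10 times as abundant in liver, against 25 (1.83%) of the other liver signatures and, by BLK.CL4 levels, 26 (3.46%) of the converse set. The other liver signatures were those with BLK.CL4 counts, so the rule bears on this contrast and it was not tested. By level, the share was 12.2% of members at 1000 CPM or more, 15.5% between 100 and 1000 CPM and 18.4% below. The share depended on the runs used, with the rule applied again and a different set each time. It was 11.4% of 368 members in T runs alone and 10.5% of 494 in TH runs alone. When a signature had to be counted in at least 2 runs of a library, in both sources, it was 5.68% of 475. The differing base was the last one in 24 of the 89 and lay at positions 18 to 20 in 52. The 89 members shared 42 neighbours, 17 of which were members themselves.

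These 89 members held 14.3%, 14.2% and 7.72% of the set's counts in liver replicates 1, 2 and 3. Their median CV was 56.2%, against 44.7% for the 446 members without such a neighbour. They lacked TH counts in 27.0% of cases against 12.8%, and T counts in 23.6% against 21.1%. Their mean GC share after the DpnII site was 53.4% against 49.1%. What part the abundant neighbours have in these counts was not tested.

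The most abundant signature of liver had the largest family, with 14 members. It stood at 164845 ± 40809 CPM (SD, n = 3), and its 254 BLK.CL4 counts mean that it is no member. The 5 most abundant of its 14 neighbours are set under it with the differing base in capitals, since they show how little separates the sequences.
most abundant liver signature: GATCcctggtggaaaggcgg
M5: gatccctggtggaaGggcgg
M21: gatccctggtggaaaggAgg
M25: gatccctggtggGaaggcgg
M26: gatccctggtggaaaggcAg
M152: gatccctggtggaaTggcgg
The changes, written as the abundant signature's base, the position (the G of the leading GATC is position 1) and the member's base, are A15G, C18A, A13G, G19A and A15T. Of the 48 possible 1-base variants after the DpnII site, 45 were listed in some liver library, and 14 of them passed into the set. Per 10000 counts of the abundant signature, M5 had 326, 478 and 147 counts in liver replicates 1, 2 and 3. M25 had 112, 86.6 and 76.3, and M26 had 65.9, 191 and 37.2. At the low end M470, T10A, had 2.76, 1.67 and 1.32. The ratios of most variants shifted several-fold between libraries, and those of M5, M21, M25, M26 and M152 were all lowest in replicate 3. M25 had no TH count, and for M21 the T runs gave 9398 counts and the TH runs 354.

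**Figure D4:**
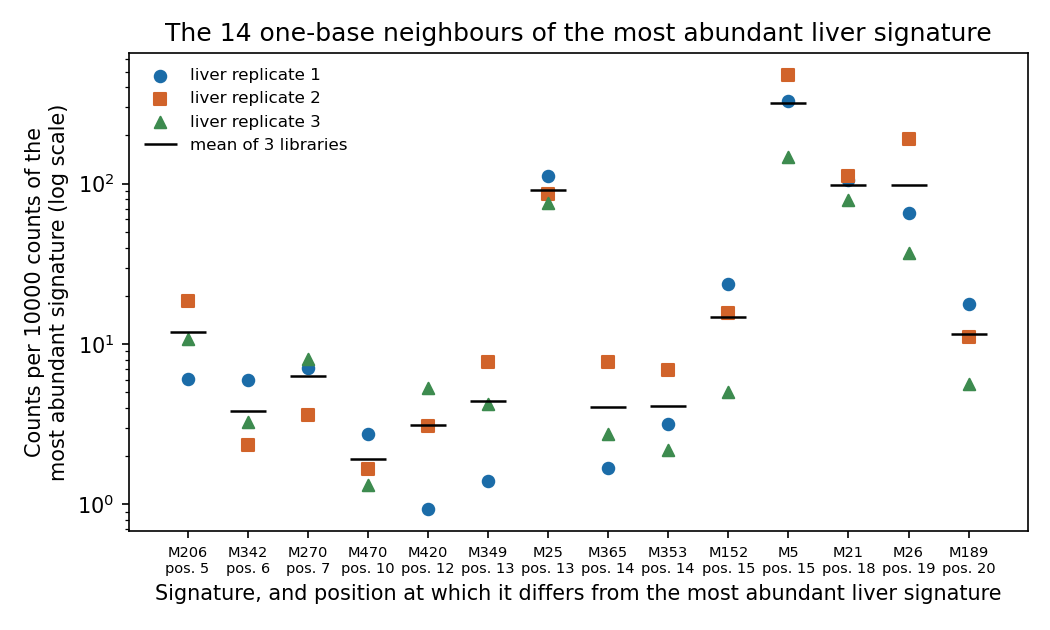
Counts per 10000 counts of the most abundant liver signature (log scale) for its 14 one-base neighbours among the liver signatures, ordered by the position that differs; points are the 3 liver libraries and bars their means. M5, M21, M25 and M26 stand well above the other 10, which lie between 0.930 and 23.8 per 10000.

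A second family of 10 members surrounded the signature that 34 counts kept out of the set. M16 differs from it by T19C and had 426, 405 and 547 counts per 10000 of it in the 3 liver libraries. M108, T5A, had 42.8, 80.2 and 117, and M460, T10A, had 11.0, 7.89 and 4.07. M108 had more of its share in TH runs, at 181 per 10000 against 2.99 in T runs, and M16 in T runs, at 793 against 75.7. Of its 48 possible 1-base variants, 34 were listed in liver and none had a BLK.CL4 count. The signature itself had only 34 counts in BLK.CL4. At the liver ratios its variants could go uncounted at that depth, so their absence there tells little.

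In BLK.CL4, 102 members (19.1%) had a 1-base neighbour with counts, and in 38 the neighbour averaged 10 CPM or more there. For those the zero of the member can be read against the neighbour's depth. The share of other liver signatures with such neighbours is not given, so the counts describe the members only. The following pairs were chosen after their values were seen.
M42: gatcccactgcacatagAac
its neighbour: gatcccactgcacatagGac
The neighbour of M42, which differs by G18A, was common to both sources. It had 30368, 74608 and 17607 counts in liver and 12385, 19126 and 4540 in BLK.CL4. M42 had 498, 458 and 440 counts per 10000 of it in liver, a narrow range. In BLK.CL4 it had 0 against 36051 counts of the neighbour, which allows up to 0.832 per 10000 (3 counts over the 3 libraries together). The neighbour was read in both run types in both sources, while M42 was counted in T runs alone, with 1513, 3416 and 774 counts. The neighbour had 16716 T counts in BLK.CL4. With both run types pooled, the liver ratio was above the limit that 0 allows in 29 of the 102 members. For the family of the most abundant liver signature, with its 254 BLK.CL4 counts, the limit was 118 per 10000. Over the liver libraries together M5 was above it, at 309. The other members of that family lay below it, from M470 at 1.95 to M21 at 98.2. This order holds for the pooled run types only. The most abundant liver signature had 172 T and 82 TH counts in BLK.CL4. In liver T runs M21, M25 and M26 had 227, 221 and 203 counts per 10000 of it, and in TH runs 6.12, 0 and 13.0. Among the 1-base variants of the neighbour of M42, 7 had BLK.CL4 counts.

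M244 was the reverse case, in which each source counted a different sequence of the pair.
M244: gatccagaatatgaccGtcc
its neighbour: gatccagaatatgaccAtcc
The liver libraries gave 67, 543 and 177 counts of M244 (393 from T runs, 394 from TH runs), and BLK.CL4 gave none. The neighbour, which differs by A17G, had 254, 787 and 151 counts in BLK.CL4 and 0 in liver. M508, C20T, had a neighbour counted in both, and stood at 127, 73.6 and 85.9 per 10000 of it in liver, above the 35.8 per 10000 that 0 allows in BLK.CL4.

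The base content of the members was close to that of other liver signatures. Over the 16 bases after GATC, the mean GC share was 49.8 ± 13.1% (SD over 535 signatures), with a median of 50% and a range of 18.8% to 81.2%. It was 50.7% in the other liver signatures and 51.4% in the 945 signatures at 10 CPM or more in all 6 libraries. The members held 25.1% A, 27.0% C, 22.8% G and 25.1% T. At position 5, the first base after the DpnII site, 42.2% of members had G or C against 50.6% of the 945 shared signatures, 46.0% of the 424 liver signatures with weaker BLK.CL4 counts and 40.6% of the converse set. C at that position was found in 35.5% of members, 44.9% of the shared, 39.4% of the weaker and 34.1% of the converse signatures.

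Weighted by counts, the GC share of the members was 49.7%, 49.4% and 47.3% in the liver libraries, against 55.9%, 52.0% and 55.2% for the other liver signatures. The groups do not overlap, and the second is carried by few sequences. The most abundant members illustrate the spread: M3 and M4 had 31.2% GC, M1 and M2 37.5%, M6 68.8% and M5 75%. A CG dinucleotide occurred after the DpnII site in 133 members (24.9%), against 29.9% of other liver signatures. Of these, the shared ones held it in 32.7% and those with weaker BLK.CL4 counts in 23.8%, so a low share was not limited to the members. AATAAA, the usual poly(A) signal, occurred in 4 members (0.748%), 2 of the 1369 others (0.146%) and 5 of the converse set (0.666%). ATTTA occurred in 1 member (0.187%), against 0.511% of other liver signatures and 0.932% of the converse set. A run of 5 adenines occurred in 10 members (1.87%), against 0.950% and 2.40%. A single member held a second GATC. All these words were counted on the read strand only, and a missing word says no more than that these letters are not in the 16 bases.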

How the data were processed

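The 6 deposited tables give, per the file headers, raw counts of beads for each 20-base signature in 4 runs. Base caller, signature filter and counter are not given in the sources used here. Bead totals stated in the labels exceed the listed counts, which are 93.9% to 95.2% of them. The 4 run counts of a library were summed and divided by its total. Run type was tested on counts summed by liver library and type with edgeR 4.0.16 (R 4.3.3, TMM factors, library block, two-sided quasi-likelihood test, Benjamini-Hochberg adjustment) and, as an alternative, DESeq2 1.42.0. The step was tested on simulated data that had no differences between libraries beyond depth and no runs that miss a signature. That simulation cannot tell why the test with the library block called no signature. T and TH counts come from the same cloned library, which is the pairing behind the block. Other values were computed with Python 3.11.15, pandas 2.3.3 and numpy 2.4.6.

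Signatures were compared with RefSeq gene start windows and miRNAs by exact match on both strands. A 1-base neighbour has the same length and differs at 1 position. Named are the 10 most abundant members, the 3 most and 3 least even at 50 CPM or more, the members nearest the limits, the 5 members with the most abundant neighbours, and, where a run type test passed, the 3 largest differences in each direction, of which there were none. Named besides, after their values were seen, are members that lack a run type, match RefSeq, differ between run types or runs, or belong to the neighbour families and pairs shown. Members and lists were chosen with earlier results of these data known. Alternatives changed the CPM minimum, the BLK.CL4 limit, the totals, the runs used, the libraries, the filter, the factors and the block. Replicate numbers follow the order of the deposited samples.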

Additional observations from a re-analysis of the deposited data

How the results depend on the processing

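Members numbered 368 (T runs only) to 679 (a minimum of 5 CPM) under the settings that kept all libraries, and 562 to 836 with 1 library left out, the highest without liver replicate 1. Their share of liver counts, 18.7% as reported, was 20.3% with 1 BLK.CL4 count allowed, 16.3% in T runs only, 28.9% in TH runs only, 24.4% with signatures in at least 2 runs of a library and 16.4% without members 1 base from a signature at least 10 times as abundant. With 1 library left out it ran from 18.9% to 30.3%, the highest without BLK.CL4 replicate 2. The share of the set's counts in its 10 most abundant members, 28.4% as reported, also moved. It was 26.8% in T runs only and 42.1% in TH runs only, and 26.1% to 37.2% with 1 library left out. The setting without 1-base neighbours and a merge on the first 19 bases, which left 480 members, were chosen after seeing the data. Against 0 run type calls with the library as a block, DESeq2 called 175 members with TH above T and 115 with T above TH, and edgeR with no replicate block 128 and 93. The cause was not tested. The other edgeR settings run (library totals, no filter, 25 CPM, each liver library left out) called 0. Depth limits the rule, since a count of 0 in BLK.CL4 is no proof of absence, and the run type test is limited to the 3 liver libraries.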
